A study of Arabidopsis thaliana with 12 samples.

Results

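Transcript signals of 6 photosynthesis genes were followed in Arabidopsis thaliana mutant and wild-type plants of the ecotype Wassilevskija, measured on 12 arrays. The genes were those 6 for which the array's annotation gave a probe exactly 1 gene name, that name being PSAN, PSBW, PSBY, PSB27, LPA19 or LHB1B2. Each had 1 probe among 3439 in all. The set held 3 photosystem subunits, 2 photosystem II assembly factors and 1 light-harvesting protein. The 6 aap6 arrays came from a mutant that lacks the amino acid permease AAP6, a transporter of the xylem parenchyma per the labels, and the 6 WT arrays from the unmutated ecotype. The sources used here give neither the nature of the mutation, the tissue and the age of the plants, nor the type of array. With 0 probes named AAP6, that transcript could not serve as a check on the genotype labels.

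Photosystem II splits water and passes electrons through the cytochrome b6f complex to photosystem I, which reduces ferredoxin. Both photosystems sit in the thylakoid membrane of the chloroplast and receive excitation from chlorophyll-binding light-harvesting proteins. Their cores are chloroplast-encoded, whereas small subunits, antenna proteins and assembly factors such as these 6 are encoded in the nucleus and imported. Assembly factors act during the stepwise building and the repair of photosystem II and are not part of the finished complex. Subunits and antenna proteins are abundant in green tissue, where their messages are among the most plentiful.

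The deposited values were linear signals from 0 up to an upper bound that arrays share. Array medians lay between 0.234 and 0.265 in aap6 and between 0.142 and 0.164 in WT. Between 236 and 320 probes per aap6 array and between 334 and 550 per WT array were listed at exactly 0. No value of the 6 genes was at 0 or at the upper bound. Within a genotype, arrays 1 and 2, 3 and 4, and 5 and 6 correlated at 0.993 to 0.998 across probes, and other arrays at 0.955 to 0.980. Each such pair was averaged into 1 sample, which gave n = 3 per genotype. Whether the numbers are separate plants is not stated, and the p-values here may thus reflect technical spread alone. Of 35 marker genes of green tissue, root, xylem, phloem, guard cells and seed, 0 had a probe of their own, so the tissue was not checked through them. In whole-tissue RNA, fewer cells of a type and less RNA per cell cannot be told apart.

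Of the 15 ratios between these genes, that of PSAN to PSB27 differed most between genotypes on the deposited scale. There PSB27 was 1.60-fold to 1.70-fold higher in aap6 than in WT in each of the 6 array numbers, and PSAN was lower in aap6 in each of them. As deposited, 48.5% of tested probes were higher and 5.97% lower in aap6 in all 6 numbers, and the median probe was 1.35-fold to 1.4-fold higher in each number. PSBW, PSBY and LHB1B2 went in different directions in different array numbers. The sign of the mean change turned with the scaling of the arrays for LPA19, which was dim, and for PSBW, and PSB27 no longer differed in mean with each array divided by its median (log2 change -0.0073). In the comparison of 3 aap6 with 3 WT samples, 0 of the 6 genes passed an adjusted p of 0.05 in limma. Over all probes, 8.88% passed that test. With the numbered sample pairs as a block, PSB27 alone passed (adjusted p = 0.0483 in limma), being higher in aap6. In that fit 18% of all probes passed in either direction, and 10.4% of all probes passed as higher in aap6.

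**Figure D1:**
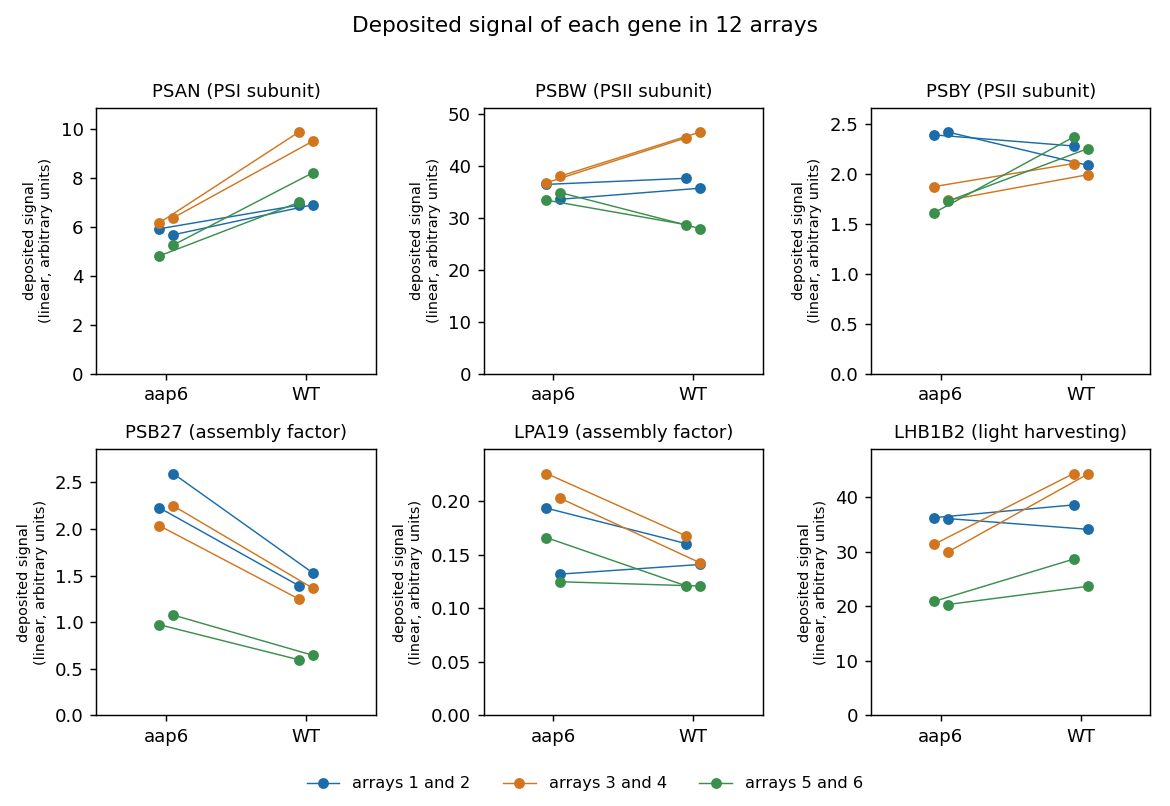
Deposited signal (y axis, linear, from 0) of each gene in the 6 aap6 arrays and the 6 WT arrays (x axis). Lines join arrays of the same number, colours mark the array pairs that were averaged. All 6 PSB27 lines run down towards WT, whereas all 6 PSAN lines run up.

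PSAN encodes a small lumenal subunit of photosystem I near the plastocyanin docking site. Its deposited signals were 5.92, 5.67, 6.15, 6.36, 4.81 and 5.25 in aap6 arrays 1 to 6. In WT arrays 1 to 6 they were 6.88, 6.90, 9.87, 9.49, 7.0 and 8.20. The genotypes did not overlap, every aap6 array lying under every WT array. Such a separation, lower in aap6, was found for 1.67% of all tested probes on the deposited scale. Within array numbers the aap6 signal was 0.624 to 0.859 of the WT signal. A lower aap6 signal in all 6 numbers occurred for 5.97% of probes. The arrays of a pair are close to repeats of each other, so these 12 values carry less than 12 samples would.

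After quantile normalization, which gives every array the same distribution of signals, the averaged PSAN samples stood at 6.24, 6.26 and 5.03 in aap6 and at 6.62, 8.78 and 7.61 in WT. They still did not overlap, as was the case for 34% of tested probes. PSAN was the only one of the 6 genes with that separation. The mean log2 signal was 2.54 ± 0.18 in aap6 and 2.93 ± 0.20 in WT (SD, n = 3 each). The log2 change, aap6 minus WT, was -0.39 ± 0.19 (SE), with a 95% interval from -0.84 to 0.056. It did not pass in limma (adjusted p = 0.226, or 0.147 with sample pairs as a block). PSAN passed when the 12 arrays were counted as 12 samples (adjusted p = 0.0332 in limma). That count takes the arrays of a pair, which are close to repeats, as separate samples. In that fit 15.9% of all probes passed as lower in aap6.

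PSBW encodes a small subunit of photosystem II with a single membrane span, known for its part in keeping photosystem II and its antenna in supercomplexes. It was the brightest probe of the 6 by its mean. The aap6 arrays gave 36.4, 33.6, 36.8, 38.0, 33.4 and 34.8, and the WT arrays gave 37.6, 35.7, 45.4, 46.5, 28.7 and 27.9. The WT arrays spread more widely than the aap6 arrays and enclosed them. In array numbers 1 to 4 the aap6 signal was the lower one, in numbers 5 and 6 the higher. The normalized log2 change was 0.18 ± 0.18 (SE), with a 95% interval from -0.24 to 0.59, and did not pass (adjusted p = 0.562 in limma). Its sign depended on the scaling: the change was -0.032 as deposited and -0.76 with each array divided by its median, where it passed (adjusted p = 0.0462 in limma).

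PSBY encodes a further small photosystem II membrane protein, made as a polyprotein that is cut into separate peptides. Its signals were 2.39, 2.42, 1.87, 1.73, 1.61 and 1.72 in aap6, against 2.28, 2.08, 2.1, 1.99, 2.37 and 2.25 in WT. The aap6 arrays 1 and 2 were the highest of all 12, and the other 4 aap6 arrays were below all 6 WT arrays. The normalized aap6 samples stood at 2.46, 1.74 and 1.55 and the WT samples at 2.26, 2.03 and 2.29. Within sample pairs the log2 change was 0.12, -0.23 and -0.56. The mean change of -0.22 ± 0.22 (SE, 95% interval -0.72 to 0.28) did not pass (adjusted p = 0.546 in limma).

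PSB27 encodes a lumenal factor that binds photosystem II during assembly and is needed for its repair after light damage. The deposited signals were 2.23, 2.60, 2.04, 2.25, 0.974 and 1.08 in aap6 arrays 1 to 6 and 1.39, 1.53, 1.25, 1.36, 0.596 and 0.645 in WT arrays 1 to 6. Arrays 5 and 6 were the lowest of their genotype in both genotypes, so that the groups overlapped: aap6 arrays 5 and 6 lay under all WT arrays of numbers 1 to 4. Against the WT array of its own number, every aap6 array was higher. That held for 48.5% of tested probes on the deposited scale. The 6 ratios of aap6 to WT ran from 1.60 to 1.70 with a median of 1.64.

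The normalized PSB27 samples stood at 2.47, 2.12 and 0.928 in aap6 and at 1.58, 1.36 and 0.687 in WT. The log2 differences within the 3 sample pairs were 0.65, 0.64 and 0.43, all in one direction, as for 26.9% of tested probes. The range between samples of 1 genotype was 1.41 in aap6 and 1.20 in WT on the log2 scale, more than the change between genotypes. The log2 change was 0.57 ± 0.44 (SE), a 1.49-fold higher mean in aap6, with an adjusted p of 0.451 in limma. With the sample pairs as a block the SE was 0.14 and the 95% interval ran from 0.22 to 0.93 (adjusted p = 0.0483 in limma). The block rests on the resemblance of same-numbered samples across the genotypes, which was found in the data and is not stated in the labels. With each array divided by its median the log2 change was -0.0073, so the higher level of PSB27 was one relative to the deposited or the normalized scale.

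**Figure D2:**
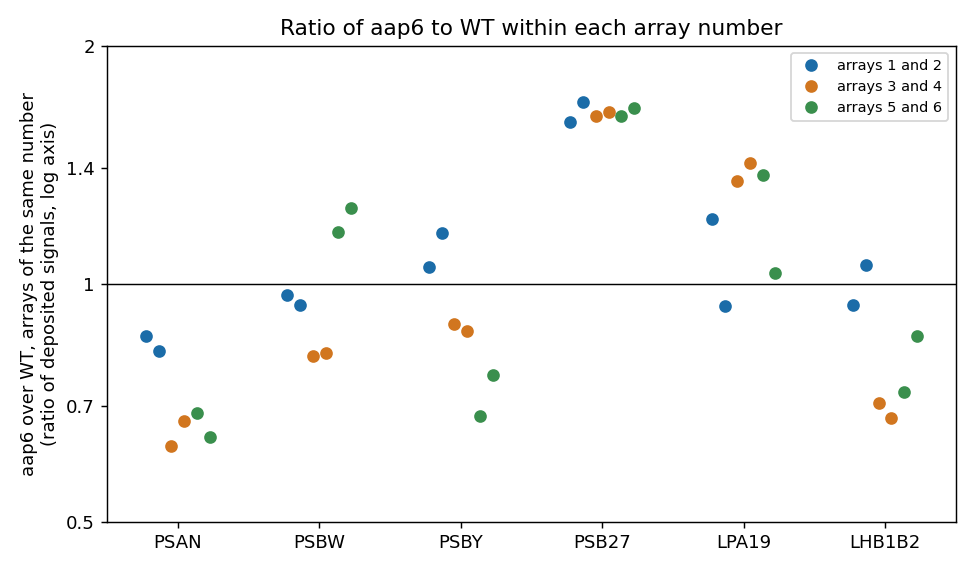
Ratio of the aap6 signal to the WT signal of the same array number (y axis, log scale, deposited values) for the 6 genes (x axis), 1 point per array number and coloured by array pair. The PSB27 points lie between 1.60 and 1.70, the PSAN points between 0.624 and 0.859, and the PSBW, PSBY and LHB1B2 points on both sides of 1.

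LPA19 encodes a homologue of Psb27 that assists the maturation of the photosystem II reaction centre protein D1. It was the dimmest of the 6 probes, with signals of 0.194, 0.132, 0.226, 0.203, 0.166 and 0.125 in aap6, against 0.161, 0.141, 0.168, 0.143, 0.121 and 0.121 in WT. As deposited, 5 of the 6 aap6 arrays were above the WT array of their number. In each genotype the signals were near the array median, from 0.474 to 0.871 times it in aap6 and from 0.737 to 1.12 times it in WT.

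After normalization the order turned round for LPA19. The averaged samples were 0.138, 0.161 and 0.102 in aap6 and 0.212, 0.202 and 0.156 in WT, lower in aap6 within all 3 sample pairs, as for 31.5% of tested probes. The log2 change was -0.52 ± 0.23 (SE, 95% interval -1.06 to 0.019), with adjusted p-values of 0.187 in limma and 0.0646 in the blocked fit. On the deposited scale the change was 0.27. The scaling therefore set the sign of this gene's change. Counted as 12 samples the normalized arrays gave an adjusted p of 0.0453 in limma. In that fit PSAN and LPA19 passed, both lower in aap6, while 15.9% of all probes passed in that direction.

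LHB1B2 encodes a chlorophyll a/b-binding protein of the Lhcb1 type, the most abundant antenna of photosystem II. Lhcb1 genes are close relatives, and signal from them cannot be separated here. Its deposited signals were 36.3, 36.1, 31.3, 29.9, 20.9 and 20.3 in aap6, against 38.6, 34.1, 44.4, 44.2, 28.6 and 23.7 in WT. Arrays 5 and 6 were the lowest in both genotypes, and aap6 was lower than WT in 5 of 6 array numbers, number 2 being the exception. The normalized log2 change was -0.10 ± 0.20 (SE, 95% interval -0.57 to 0.37) and did not pass (adjusted p = 0.782 in limma).

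**Figure D3:**
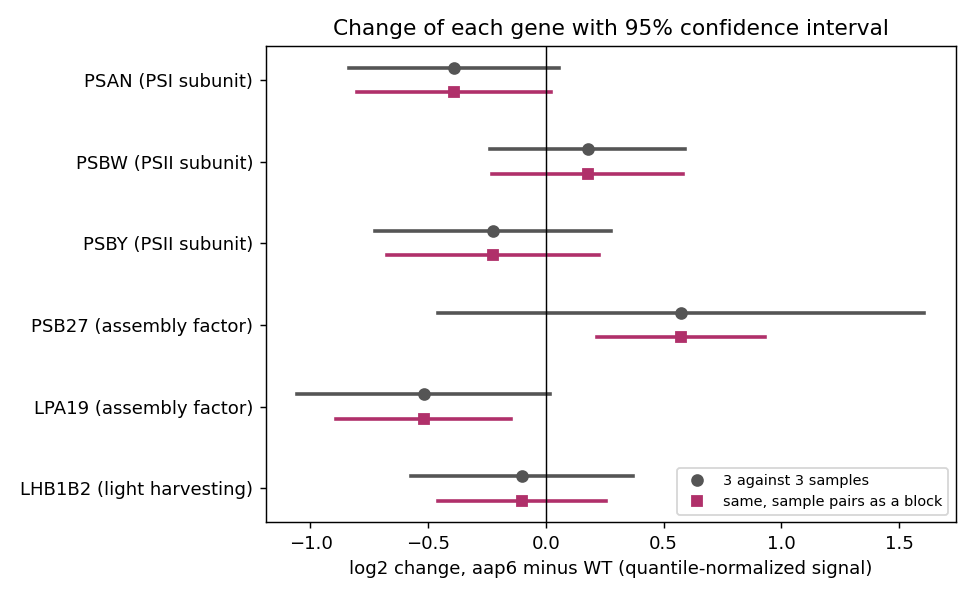
Log2 change of the normalized signal, aap6 minus WT (x axis), of each gene (y axis), with 95% confidence intervals from limma on 3 against 3 averaged samples (circles) and from the fit blocked by sample pair (squares). The block narrows the PSB27 interval to 0.22 to 0.93, and its LPA19 interval also lies on 1 side of 0 before adjustment over all probes.

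By mean signal PSBW, LHB1B2, PSAN, PSBY, PSB27 and LPA19 ranked 15, 17, 69, 221, 324 and 1926 of 3439 probes. All but LPA19 were thus bright, and probes dimmer than LPA19 were not covered. Rank among probes describes the signal of a probe, which also depends on the probe itself, and is not a comparison of transcript numbers between genes. Ranked from the brightest down, PSBW stood at 10 to 16 in aap6 arrays and 14 to 16 in WT arrays, and LHB1B2 at 14 to 21 in aap6 and 13 to 20 in WT. PSAN stood at 75 to 101 in aap6 and at 50 to 74 in WT. These ranks did not overlap, but 74 and 75 are adjacent. No share over all probes is given here for the separation or the direction of ranks, so they are a description only. PSBY ranked from 198 to 309 in aap6 and from 205 to 243 in WT. PSB27 ranked from 187 to 477 in aap6 and from 287 to 614 in WT, higher in aap6 in each array number. LPA19 ranked from 1892 to 2547 in aap6 and from 1607 to 2023 in WT. Both assembly factors were thus dimmer than the subunits PSAN and PSBW on every array, while PSB27 was close to PSBY.

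The median change over the tested probes differed between groups of brightness. As deposited, all tested probes had a median log2 change of 0.50, but this was -0.075 over the 50 brightest probes and 0.013 over the next 450. It was 0.45 over ranks 501 to 1500 and 0.81 over ranks 1501 to 2579. PSBW and LHB1B2 belong to the first of these groups, with deposited changes of -0.032 and -0.29. PSAN, PSBY and PSB27 belong to the second, with changes of -0.49, -0.17 and 0.72. LPA19 belongs to the last, and its 0.27 was below the median there. Relative to the shift of 0.50 over all probes, PSAN stood at -0.99, LHB1B2 at -0.79, PSBY at -0.67, PSBW at -0.53, LPA19 at -0.23 and PSB27 at 0.22. For all of these but LPA19, the 0.50 is more than the median of their own brightness group. Against probes of like brightness those genes stood higher than these relative values show.

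**Figure D4:**
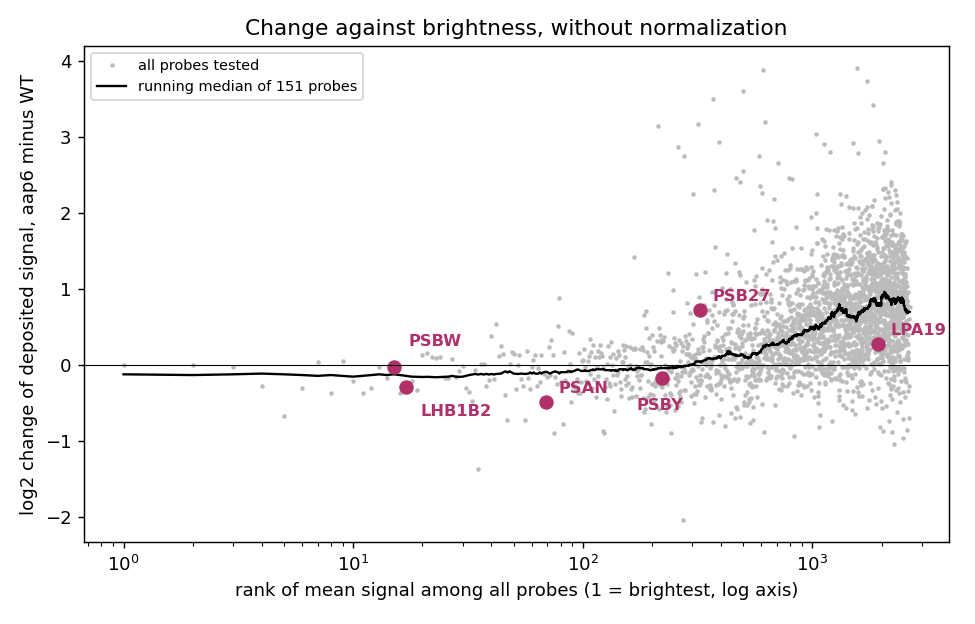
Log2 change of the deposited signal without normalization, aap6 minus WT (y axis), against the rank of the mean signal among all probes (x axis, log scale, 1 is the brightest), for all tested probes (grey) and the 6 genes (named points). The black line is a running median of 151 probes, which stays near 0 for bright probes and is above 0 for dim ones.

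Dividing each array by its median lowered aap6 relative to WT for bright and dim probes alike, since the aap6 medians were higher. On that scale PSAN, PSBW, PSBY and LHB1B2 passed in limma, all lower in aap6, with log2 changes of -1.22, -0.76, -0.90 and -1.02 and adjusted p-values of 0.00935, 0.0462, 0.0264 and 0.0462. The median change of all tested probes was then -0.22, and 18.9% passed as lower in aap6. With the sample pairs as a block on the deposited scale, PSAN and PSB27 passed in opposite directions (adjusted p = 0.0486 and 0.0108 in limma). Of all probes, 1.94% passed as lower in aap6, the direction of PSAN, and 45% as higher, that of PSB27. With 12 arrays and the 6 numbers as a block, PSAN, PSB27 and LPA19 passed, while 40.6% of all probes did. PSAN had a negative change under each of the 3 scalings, and PSBY and LHB1B2 did too.

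Ratios between genes within an array do not depend on a constant scaling of that array, and were used to set subunits against assembly factors. They can still carry a shift that varies with brightness, such as the one described above. Each of the 15 pairs of genes was compared between genotypes on the deposited scale. The ratio of PSAN to PSB27 was 2.41, 2.92 and 4.91 in the aap6 samples, against 4.73, 7.42 and 12.2 in the WT samples. It was lower in aap6 within every sample pair, on average 0.432 of the WT ratio, although the lowest WT sample fell inside the aap6 range. The ratio of PSB27 to LHB1B2 was 0.0665, 0.0699 and 0.0497 in aap6, against 0.0402, 0.0295 and 0.0238 in WT. These did not overlap, and the ratio was 2.02-fold higher in aap6. After quantile normalization it was 1.60-fold higher and the samples overlapped.

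The PSAN to PSBW ratio, between subunits of the different photosystems, was 0.166, 0.167 and 0.147 in aap6 and 0.188, 0.211 and 0.268 in WT, also without overlap. The PSAN to LPA19 ratio was 36.2, 29.2 and 34.9 in aap6 and 45.8, 62.6 and 62.6 in WT, likewise without overlap. After quantile normalization its difference turned to 0.13 on the log2 scale, against -0.76 as deposited. In all, 3 of the 15 ratios did not overlap as deposited and 4 did not after normalization. Only 1, PSAN to PSBW, was without overlap on both scales. Among single tested probes, 34% were without overlap after normalization. No share over all pairs of probes is given here, so these counts are a description only. The exact permutation test, two-sided, cannot go below p = 0.1 with 3 against 3 samples. The 3 ratios without overlap as deposited reached that value (0.429 after Benjamini-Hochberg adjustment over 15 ratios), so none passed.

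Averaged over roles, the signal of subunits relative to assembly factors was lower in aap6 than in WT within all 3 sample pairs, by an amount that depended on the scaling. After normalization, the mean log2 signal of PSAN, PSBW and PSBY minus that of PSB27 and LPA19 was 3.99 ± 0.43 in aap6 and 4.17 ± 0.43 in WT (SD, n = 3 each). The difference was -0.17, less than the spread between samples of a genotype, and within sample pairs it was -0.028, -0.34 and -0.15. As deposited, the samples stood at 3.66, 3.47 and 4.10 in aap6, against 4.13, 4.43 and 4.85 in WT, without overlap. The means were then 3.74 ± 0.32 in aap6 and 4.47 ± 0.36 in WT (SD, n = 3 each), a difference of -0.73, with -0.46, -0.96 and -0.75 within sample pairs. Dividing each array by its median also gave -0.73, since the arrays' scale cancels. The shift with brightness does not cancel, as the subunits are bright and LPA19 is dim. As deposited, tested probes had a median change of -0.075 over ranks 1 to 50 and 0.013 over ranks 51 to 500. It was 0.81 over ranks 1501 to 2579, the group of LPA19. How much of the -0.73 goes with this shift was not tested. No share over all sets of probes is given here for such averages. No test was made of these averages, as the genes were chosen with earlier results known. The assembly factors themselves parted after normalization, PSB27 at 0.57 and LPA19 at -0.52. Their log2 ratio, PSB27 to LPA19, differed by 1.09 between aap6 and WT after normalization and by 0.45 as deposited.

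The profiles of the 6 genes over the 6 averaged samples were also set against each other and against 492 other tested probes with a single gene name. Likeness was measured as the root mean square difference of centred log2 signals, which is 0 for identical profiles. Among the 6, PSBY and LHB1B2 were closest (0.18) and PSAN and PSB27 farthest apart (0.71). PSB27 was at least 0.52 from each of the others. The nearest probes were AT2G46850 (0.042) and GLDH (0.081) for PSAN, AT2G35490 (0.12) and AT1G02260 (0.13) for PSBW, and CYN (0.11) and AT2G03390 (0.12) for PSBY. GLDH encodes the last enzyme of vitamin C synthesis and CYN a cyanase. For PSB27 the nearest, AT4G33480 (0.26) and AT5G43770 (0.27), were farther away than the nearest of any other of the 6. The measure was not scaled for spread, and PSB27 had the widest range between samples of a genotype among the 6. Its distances may thus reflect the size of its variation as well as its pattern. For LPA19 they were AT4G33760 (0.068) and AT3G15490 (0.11). LHB1B2 was closest to AT3G58610 (0.060) and to PRK (0.099), the phosphoribulokinase of the Calvin cycle.

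Other light reaction genes were sought by matching gene names and synonyms to a list of name patterns. Genes without a matching name were not counted. Of the genes matched, 12 had a probe of their own, and these 6 were among them. The others were NdhS, NdhN, CRR21, CRR41 and PIFI of the chloroplast NDH complex and its factors, and CCB3, which serves cytochrome b6f assembly and was too dim to be tested. Among the 11 tested, 0 passed as higher and 1 as lower in aap6 in limma, where 5.82% of all probes passed as higher and 3.06% as lower. In either direction 1 of 11 is close to the 8.88% of all probes. That gene was PIFI, with a log2 change of -1.22 ± 0.22 (SE, adjusted p = 0.0212 in limma). As deposited the PIFI change was -0.30 and did not pass (adjusted p = 0.279 in limma). The only light reaction gene to pass there was CRR41, higher in aap6 with a log2 change of 0.80. In that fit 880 of 2579 tested probes passed as higher in aap6, and the median log2 change of all tested probes was 0.50. The bright probe of NdhS, a subunit near the ferredoxin-binding site, had a log2 change of 0.36 ± 0.18 (SE) and did not pass (adjusted p = 0.223 in limma). The 5 tested genes other than the 6 described above had a median log2 change of 0.035, all 11 had -0.10, and all tested probes had -0.030.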

How the data were processed

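The 12 arrays were grouped as aap6 or WT from their titles. The deposited table held 1 intensity per probe and array on a linear scale, per the file headers and values. How the authors corrected the background and scaled the arrays is not given in the sources used here, which leaves scale and centring unknown. Of 3439 probes, 692 had 1 gene name in the platform annotation, 870 several and 1877 were not listed, and 690 of the 692 matched a gene table of assembly TAIR10.1, from which only names were taken.

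Intensities were quantile normalized, raised to a floor of 0.0505 (the 10th percentile of values above 0) and put on the log2 scale. Array pairs were averaged, and the 25% of probes with the lowest mean were left out. The other 2579 were compared, aap6 minus WT, by lmFit and eBayes of limma 3.58.1 under R 4.3.3, with Benjamini-Hochberg adjustment over all of them at 0.05. The fit was run on simulated data with set changes, as a check of the code. The simulated spread was the same for all probes and not that of the 6 genes. That check thus does not show which changes of these genes could be found. Same-numbered averaged samples deviated together across genotypes (correlations 0.403 to 0.506). The numbers were therefore used to describe sample pairs and as a block in alternative fits. The main fit had no block and did not pair the samples. All 6 genes were named, as were other light reaction genes if called or among the 6 brightest, and the 2 nearest profiles of each gene. NdhN, CRR21, CRR41 and CCB3, outside that rule, were named after their values were seen. The genes and lists were chosen with earlier results of these data known, and the averaging and the floor followed those results. The number of arrays limits the precision. Alternatives were other scalings, floors, filters, a trended robust variance model, 12 separate arrays, replicate blocks and left-out arrays.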

Additional observations from a re-analysis of the deposited data

How the results depend on the processing

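The combinations of a block with another scaling, and the alternatives of the ratios, were chosen after seeing the data. The other floors, the trended variance model and the absence of a filter moved no call of the 6 genes. LPA19 was too dim to be tested under the stricter filter on dim probes, where 0 light reaction genes passed. Without normalization 900 probes passed instead of 229, the PIFI call was lost, PSBW stood at -0.032 and LPA19 at 0.27 (log2), and the subunits minus assembly factors at -0.73. With each array divided by its median, 685 of 2579 tested probes, 4 of the 6 genes and 5 of 11 light reaction genes passed. PSAN was then at -1.22, PSBW at -0.76, PSBY at -0.90, PSB27 at -0.0073, LHB1B2 at -1.02, and the subunits minus factors again at -0.73. These scalings differ by their construction in the shift they leave between genotypes.

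Each of the following fits tested 2579 probes, among them the 6 genes and 11 light reaction genes. Of all probes, 18% passed with the block of 3 sample pairs and 40.6% with that of 6 numbers. The counts of genes are to be read beside the counts of probes in the same fit. As 12 samples, 783 probes, 2 of the 6 genes (PSAN at -0.39, LPA19 at -0.52) and 4 light reaction genes passed. With the replicate block of 3 sample pairs, 464 probes, 1 of the 6 genes (PSB27 at 0.57) and 2 light reaction genes passed. With the block of 6 numbers over 12 arrays, 1046 probes, 3 of the 6 (PSAN, PSB27 and LPA19, at the same values) and 5 light reaction genes passed. The block of sample pairs as deposited gave 1211 probes, 2 of the 6 (PSAN at -0.49, PSB27 at 0.72) and 4 light reaction genes. Median centred it gave 1034, 4 and 5, with the changes stated for that scaling. The cause of these moves was not tested.

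When 1 array or 1 averaged sample at a time was dropped, there were 57 to 216 calls over all probes, 0 of the 6 genes throughout, and 0 to 1 light reaction genes. The fewest calls came without aap6 arrays 3 and 4 (57), followed by those without aap6 arrays 1 and 2 (77), WT 3 and 4 (87), aap6 5 and 6 (95) and WT 1 and 2 (142), and 151 without WT array 1. The PIFI call was lost without aap6 array 4, WT array 3, or both arrays of aap6 1 and 2, aap6 3 and 4, WT 1 and 2 or WT 3 and 4. The log2 change ran from -0.49 to -0.29 for PSAN, 0.082 to 0.30 for PSBW, -0.43 to -0.089 for PSBY, 0.20 to 1.02 for PSB27, -0.69 to -0.34 for LPA19 and -0.23 to 0.030 for LHB1B2, and from -0.42 to 0.053 for subunits minus factors. Filters, blocks and the variance model leave a ratio between genes as it is. As deposited, 6 of the 15 ratios moved by more than the spread between samples, 5 of them with LPA19 and the other PSBY to LHB1B2, and 5 of the 15 changed sign. Low signal limits LPA19. It was above the floor on every array, and its arrays of a pair differed by up to 0.55 on the log2 scale.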
